A study of Drosophila melanogaster with 3 samples.

Results

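The genes described here encode subunits of the oxidative phosphorylation system of Drosophila melanogaster, the 5 protein complexes of the inner mitochondrial membrane that make ATP. They were chosen by name, as the protein-coding genes whose symbol in the Ensembl annotation of the dm6 genome starts with ND-, ATPsyn, COX, UQCR, RFeSP or Sdh. The rule gave 89 genes out of 13945 protein-coding genes on the 6 main chromosome arms. By complex they were 40 genes of complex I, 8 of complex II, 10 of complex III, 16 of complex IV and 15 of complex V. The complex II genes include Sdhaf3, named as an assembly factor. The rule misses subunits with other names, such as blw, levy and cype, which are given separately.

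Binding of Aef1, a zinc finger transcription factor known for the sequence CAACAA, was measured by chromatin immunoprecipitation and sequencing. The chromatin came from whole embryos of 0 to 24 h from flies carrying an Aef1-eGFP fusion, and the antibody was against GFP. There was 1 group of 3 biological replicates, with no untagged or input sample analysed here, and every embryo carried the fusion. The authors' thresholded peak lists, kept on the irreproducible discovery rate (IDR, a measure of how well a peak's rank repeats), held 3495, 3126 and 2942 peaks in replicates 1, 2 and 3, and the number of reads behind them is unknown. Whole embryos mix all cell types, so a peak does not show in which cells the site was occupied.

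In oxidative phosphorylation, complexes I and II pass electrons to ubiquinone, complex III passes them to cytochrome c, and complex IV passes them to oxygen. Complexes I, III and IV pump protons across the membrane, and complex V, the ATP synthase, uses the returning protons to make ATP. Most subunits are encoded in the nucleus and a few in mitochondrial DNA, and all genes here are nuclear. In flies several of these genes have a second copy, often with a name ending in L, and such duplicates of mitochondrial genes are known for expression in the testis. Roles of single subunits given below rest in large part on the mammalian complexes.

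A gene was counted as bound in a replicate when the summit of a thresholded peak lay within 500 bp of one of its transcript starts. Aef1-eGFP bound 17, 10 and 14 of the 89 genes in replicates 1, 2 and 3, which is 19.1%, 11.2% and 15.7% (mean 15.4% ± 3.95, SD, n = 3). Over all protein-coding genes the shares were 16.6%, 15% and 14.6% (mean 15.4% ± 1.05, SD, n = 3). The family as a whole was thus bound about as often as genes at large, above them in replicates 1 and 3 and below them in replicate 2. Bound in all 3 replicates were 8 members (8.99%), against 11.3% of all genes, and bound in at least 1 were 19 members (21.3%), against 19.8%. Of the genes bound at all, 42.1% of members and 56.9% of all genes were bound in 3 replicates. The design has 1 group, so these counts and the others below are descriptions without a test.

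**Figure D1:**
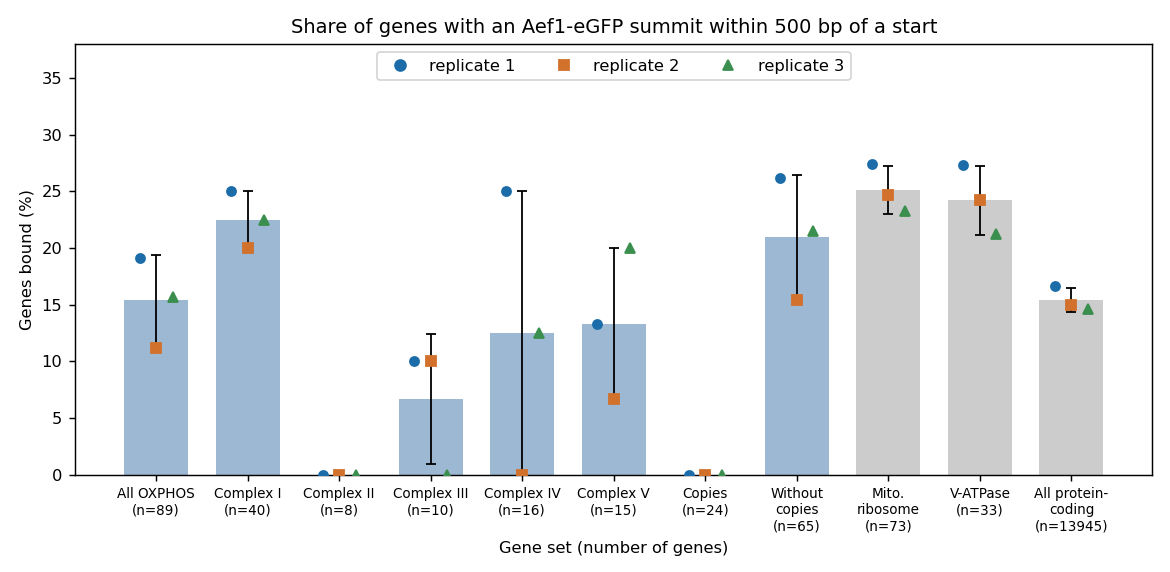
Share of genes bound by Aef1-eGFP in each replicate (points), with the mean (bars) and SD over 3 replicates (whiskers), for the oxidative phosphorylation (OXPHOS) genes, their complexes, the copies by name, the genes without the copies, 2 other gene families and all protein-coding genes. Complex I stood at 20% to 25% in the 3 replicates, complex II and the copies at 0%, and all protein-coding genes at 14.6% to 16.6%.

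The sequences under the summits are shown for the 6 members with the best mean rank after ND-MWFE was left out, so that the words they hold or lack can be read. Each run is 201 bases of dm6 centred on the median summit of a gene bound in 3 replicates, written 5′ to 3′ on the strand of that gene, so the summit is base 101. Capitals mark 3 words on either strand: the Aef1 word CAACAA, the DNA replication-related element (DRE) TATCGATA, and the E-box CAGCTG. The windows are chrX:6679266-6679466 for ND-ASHI (minus strand), chrX:17632063-17632263 for ND-24 (plus), chr2L:6062762-6062962 for ND-51 (minus), chr3R:14326893-14327093 for ATPsynE (plus), chr3L:12138482-12138682 for ND-SGDH (minus) and chrX:15063803-15064003 for ND-B18 (plus).
ND-ASHI: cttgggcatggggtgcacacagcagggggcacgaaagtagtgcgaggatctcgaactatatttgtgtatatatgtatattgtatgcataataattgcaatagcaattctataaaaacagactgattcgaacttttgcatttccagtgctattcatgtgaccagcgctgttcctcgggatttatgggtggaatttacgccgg
ND-24: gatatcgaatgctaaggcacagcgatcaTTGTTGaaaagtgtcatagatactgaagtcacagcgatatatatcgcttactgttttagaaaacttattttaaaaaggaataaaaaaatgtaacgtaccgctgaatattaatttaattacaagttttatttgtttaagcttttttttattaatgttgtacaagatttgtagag
ND-51: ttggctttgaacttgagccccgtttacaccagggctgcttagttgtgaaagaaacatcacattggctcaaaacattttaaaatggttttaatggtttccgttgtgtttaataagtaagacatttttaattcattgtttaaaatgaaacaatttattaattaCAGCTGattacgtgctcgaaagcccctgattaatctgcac
ATPsynE: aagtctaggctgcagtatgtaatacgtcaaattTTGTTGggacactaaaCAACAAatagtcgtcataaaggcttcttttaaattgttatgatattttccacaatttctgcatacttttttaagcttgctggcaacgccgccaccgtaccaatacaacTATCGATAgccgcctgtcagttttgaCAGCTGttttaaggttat
ND-SGDH: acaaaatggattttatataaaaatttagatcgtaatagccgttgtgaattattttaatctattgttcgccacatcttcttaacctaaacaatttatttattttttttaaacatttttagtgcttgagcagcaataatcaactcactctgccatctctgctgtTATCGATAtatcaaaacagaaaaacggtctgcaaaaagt
ND-B18: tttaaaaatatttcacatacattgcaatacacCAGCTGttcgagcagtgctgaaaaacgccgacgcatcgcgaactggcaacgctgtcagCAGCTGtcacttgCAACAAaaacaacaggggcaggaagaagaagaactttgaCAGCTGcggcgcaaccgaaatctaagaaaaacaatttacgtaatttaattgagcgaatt
ND-ASHI, an accessory complex I subunit with the highest mean signal of the family, holds none of the 3 words in its window. In ND-24 CAACAA stands 72 bp before the summit, and the windows of ND-51 and ND-SGDH hold none. ATPsynE has copies starting 67 and 51 bp before the summit, and of the 6 genes shown here ND-B18 alone has 1 within 50 bp of it, 3 bp past the summit. The DRE lies 57 bp past the summit in ATPsynE and 62 bp past it in ND-SGDH.

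A further pair of windows is shown, of a bound and an unbound member, and the pair does not stand for bound and unbound members at large. ND-B22 (chr2L:13370911-13371111, minus strand) was added after its values were seen, as the bound member with the tandem CAACAACAA at its summit. ND-13B (chr3L:10694059-10694259, minus strand) is an unbound member, shown from 151 bp before its start through the first 50 bases of the gene.
ND-B22: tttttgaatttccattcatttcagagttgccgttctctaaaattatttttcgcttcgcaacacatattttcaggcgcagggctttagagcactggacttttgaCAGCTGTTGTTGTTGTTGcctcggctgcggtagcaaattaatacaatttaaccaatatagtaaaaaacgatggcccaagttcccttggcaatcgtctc
ND-13B: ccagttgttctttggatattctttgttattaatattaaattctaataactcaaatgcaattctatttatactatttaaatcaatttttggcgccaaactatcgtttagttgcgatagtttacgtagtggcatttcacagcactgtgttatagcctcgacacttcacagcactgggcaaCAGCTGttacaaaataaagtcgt
In ND-B22 the overlapping copies of CAACAA start 9, 12 and 15 bp past the summit, on the opposite strand, beside an E-box 3 bp past it. ND-13B holds the E-box 27 bp past its start, and neither CAACAA nor the DRE. A word in a window is a description of the letters there and not a measured site.

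Complex I, the NADH dehydrogenase that feeds electrons from NADH into the chain, held 7 of the 8 members bound in 3 replicates. Its 40 genes had 10, 8 and 9 bound in replicates 1, 2 and 3 (25%, 20% and 22.5%; mean 22.5% ± 2.5, SD, n = 3), each replicate above all protein-coding genes (16.6%, 15% and 14.6%). In 3 replicates 17.5% of complex I genes were bound, against 11.3% of all genes. With the copies left out of both, 7 of 34 complex I genes (20.6%) and 1 of 31 genes of complexes II to V (3.23%) were bound in 3 replicates. In at least 1 replicate the difference was smaller, at 32.4% and 25.8%, against 19.8% of all genes.

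The peak with the highest mean signal in the family was at ND-ASHI (chrX:6677262-6679118, minus strand), an accessory subunit of the membrane arm. Its signal, the authors' peak value on a scale that is not stated, was 205, 229 and 153 in replicates 1, 2 and 3 (mean 196 ± 38.5, SD, n = 3). The peak ranked at 8.61%, 5.57% and 11.7% of its list, counted from the strongest peak at 0%, which is near the strong end each time. The summit lay 243 to 250 bp upstream of the start, inside an intron of Fum1, the fumarase gene of the citric acid cycle. One of the starts of Fum1 lies 522 bp from that of ND-ASHI and is transcribed away from it.

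ND-MWFE, a small membrane-arm subunit (chr2R:13158666-13160190, plus strand), was next by mean, with signals of 180, 167 and 195 (mean 181 ± 13.6, SD, n = 3). Its ranks were 11.2%, 10.2% and 7.11%, and its summits lay 192, 163 and 166 bp upstream. They were closer to the start of TppII, a divergent gene 221 bp away, than to that of ND-MWFE. ND-ASHI and ND-MWFE were the only members with a mean rank below 10%, and ND-MWFE had the higher signal of the pair in replicate 3.

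Of the core subunits, which carry the redox centres and the catalytic fold, ND-24 and ND-51 were bound in 3 replicates. ND-24 (chrX:17632089-17633509, plus strand), which holds an iron-sulfur cluster, had signals of 137, 106 and 122 (mean 122 ± 15.5, SD, n = 3). Its summits lay 72, 74 and 88 bp past the start, in the 5′ UTR, and the gene corolla starts 42 bp away in the other direction. ND-51 (chr2L:6060842-6062757, minus strand), the subunit that binds NADH and its flavin cofactor, had signals of 101, 78.1 and 61.4 (mean 80.1 ± 19.8, SD, n = 3) and ranks of 30.5%, 38.7% and 55.9%. Its summits lay 120, 105 and 72 bp upstream, between its start and that of the divergent CG13994, 232 bp away. The peak at ND-24 was thus the stronger in every replicate, and the rank of ND-51 moved the most between replicates among the members bound in 3.

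Another 3 accessory subunits of the membrane arm were bound in every replicate, each with a weaker peak than ND-24. ND-SGDH (chr3L:12137496-12138584, minus strand) had signals of 65.6, 81.3 and 71.2, ND-B18 (chrX:15063733-15064926, plus strand) 74, 63.4 and 72.4, and ND-B22 (chr2L:13370103-13371110, minus strand) 67.4, 58.5 and 65.2. Their ranks spanned 36.3% to 58.6%, in the middle of the lists. The summits of ND-B18 and ND-B22 stayed within 16 and 23 bp across replicates, while that of ND-SGDH moved over 159 bp, with replicate 3 at 152 bp upstream and the others at 2 and 7 bp past a start. ND-B22 was the only member bound in 3 replicates with no other gene's start within the window.

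**Figure D2:**
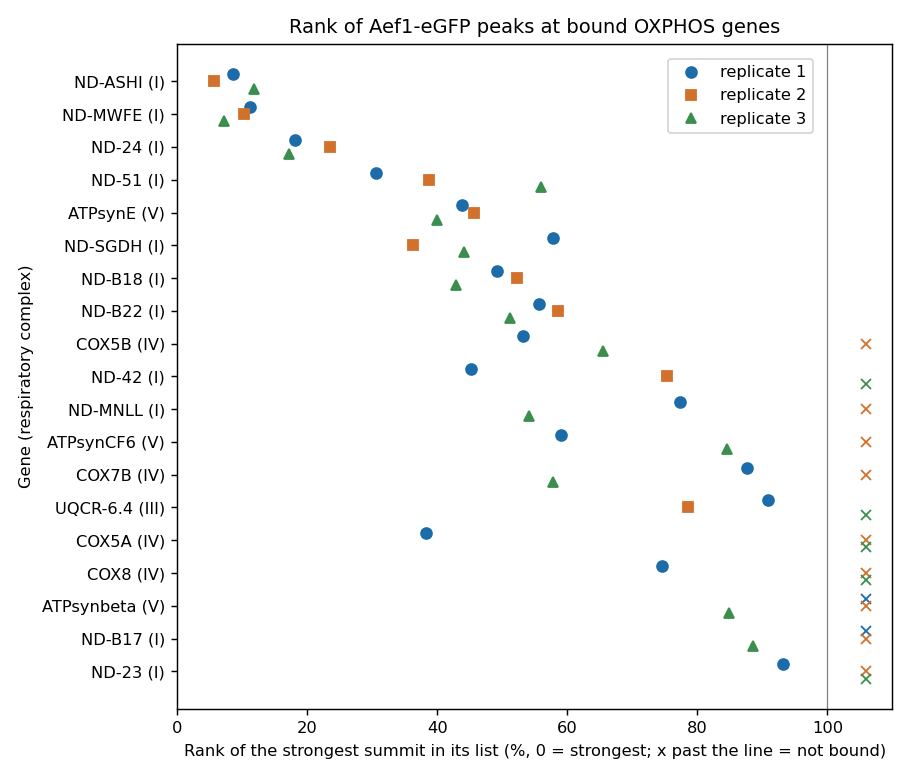
Rank of the strongest summit at each bound OXPHOS gene within its replicate's thresholded list, in percent with 0 as the strongest peak, with crosses past the line for replicates in which the gene was not bound. ND-ASHI, ND-MWFE and ND-24 lie below 25% in all 3 replicates, and the genes bound in 1 or 2 replicates lie between 38.2% and 93.1%.

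A further 4 complex I genes were bound in 1 or 2 replicates. ND-MNLL, an accessory subunit, had signals of 51.5 and 62.8 in replicates 1 and 3, and ND-42 had 78.6 and 48 in replicates 1 and 2. ND-23, a core iron-sulfur subunit, had 42 in replicate 1, and ND-B17, an accessory subunit, had 41 in replicate 3. Each of these also had a summit in the ranked list, which holds peaks of any IDR, in the replicates that did not call it. At ND-42 that peak of replicate 3 had a signal of 73 but an IDR of 0.36, although it was stronger than the peak called in replicate 2. The other core genes, ND-75, ND-49, ND-30 and ND-20, were bound in no replicate.

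Succinate dehydrogenase, complex II, which also works in the citric acid cycle, had 0 of 8 genes bound in any replicate, against 19.8% of all genes. The 8 include the copies SdhAL, SdhBL and SdhCL and the assembly factor Sdhaf3. The others are SdhA, SdhB, SdhC and SdhD, the subunits of the main enzyme. SdhA, its flavoprotein, had a summit 897, 885 and 885 bp upstream of its start in replicates 1, 2 and 3, outside the window of 500 bp. In complex III, the cytochrome bc1 complex, UQCR-6.4 was the 1 gene of 10 bound in any replicate (10%, against 19.8% of all genes). It had signals of 43.3 and 46.2 in replicates 1 and 2. That summit lay in the 5′ UTR of its neighbour CG42239. RFeSP, the Rieske iron-sulfur protein, and UQCR-C1, a core protein, were bound in no replicate.

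Complex IV, cytochrome c oxidase, varied most between replicates: 4, 0 and 2 of its 16 genes were bound (25%, 0% and 12.5%, against 16.6%, 15% and 14.6% of all genes), and none in 3 replicates. COX5B had signals of 69.6 and 54.8 and COX7B 45.2 and 59.8 in replicates 1 and 3. COX5A, with 88.3, and COX8, with 52.9, were bound in replicate 1 alone. All are nuclear-encoded subunits around the catalytic core. In replicate 2 the ranked list gave IDRs of 0.717, 0.327 and 0.76 at COX5B, COX7B and COX5A and no summit at COX8, so none of the 4 was near the limit.

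In complex V, 2, 1 and 3 of 15 genes were bound (13.3%, 6.67% and 20%; mean 13.3% ± 6.67, SD, n = 3), near the mean of 15.4% for all genes. ATPsynE (chr3R:14326947-14327735, plus strand), a subunit of the membrane part known for its role in pairing ATP synthases, was bound in every replicate, with signals of 80.1, 69.2 and 75.4 (mean 74.9 ± 5.47, SD, n = 3). Its ranks were 43.7%, 45.6% and 40%, the steadiest among members bound in 3 replicates apart from ND-MWFE. The summit lay 36 and 46 bp past a start in replicates 1 and 2 and 38 bp upstream of the nearer of its 2 starts in replicate 3, and Afti starts 258 bp away in the other direction. ATPsynCF6, coupling factor 6 of the stalk, had signals of 64.7 and 43.3 in replicates 1 and 3, with an IDR of 0.0405 in replicate 2. ATPsynbeta, the catalytic subunit, lies on chromosome 4 and had 43.1 in replicate 3, at 403 bp upstream the summit nearest to the edge of the window from inside. Just outside lay summits 515 bp upstream of ATPsyndelta and of ATPsyngamma, both in replicate 3.

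Most bound members had middling peaks. The best peak of a bound member had a median rank of 53.2%, 42.2% and 52.6% in replicates 1, 2 and 3, against 42.9%, 42.6% and 41.4% for all bound genes. In the strongest 20% of their lists were 3 of 17, 2 of 10 and 3 of 14 bound members (17.6%, 20% and 21.4%), against 25.8%, 26.7% and 27.1% of all bound genes. The members' median rank was weaker in replicates 1 and 3 and much the same in replicate 2. In members bound in 3 replicates the IDR of the called peaks ran from 1e-05 to 0.00109, with a median of 5.18e-05 over 24 calls. In members bound in 1 or 2 it ran from 0.000108 to 0.00911, with a median of 0.00147 over 17 calls.

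None of the copies was bound. Of the 89 genes, 24 are copies by name of another subunit gene, 4 of them of a gene outside the naming rule. In any replicate 0 of 24 were bound, against 19.8% of all genes. A divergent start within 1000 bp upstream was present at 4 of the 24 (16.7%). Of all genes without such a start, 11.8% were bound in at least 1 replicate. The 18 parent genes among the members were bound in 5, 3 and 5 cases in replicates 1, 2 and 3, with 6 bound at all (33.3%). Outside the rule, the parents levy and cype, both complex IV subunits, were bound in 3 and 2 replicates. The remaining outside parent is sun, that of ATPsynepsilonL, for which no value is given here. The other 65 members had 26.2%, 15.4% and 21.5% bound (mean 21% ± 5.4, SD, n = 3), against 16.6%, 15% and 14.6% of all genes. The 4 pairings with parents outside the rule were listed after values were seen. Copies can resemble their parents in sequence, and how reads mapping to both were handled is not given.

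The copy COX7AL2 (chr2L:2192525-2197912, minus strand), of a complex IV subunit, stood apart in the ranked lists. There it had a summit in its 5′ UTR in every replicate, 131, 147 and 187 bp past a start, with signals of 87, 92.5 and 92.3 and IDRs of 4.93e-05, 1e-05 and 1e-05. Those values lie past the limit of the thresholded lists, which do not hold the peak. The thresholded lists leave out 99, 111 and 110 such peaks in replicates 1, 2 and 3, and this is the 1 member affected. Per the deposited listing they were made with 1 more input than the ranked lists, whose role is not stated, so the reason was not tested.

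Beyond this gene, unbound members had no ranked peak or one with a signal of 42.4 or less. That overlaps the lowest called peaks, such as 42 at ND-23 in replicate 1 and 41 at ND-B17 in replicate 3. A ranked summit in 3 replicates was found at 25 of 89 members (28.1%), against 30.4% of all genes, and in no replicate at 23 (25.8%), against 31.1%. Unbound members with a ranked summit in 3 replicates numbered 7: ATPsynC, ATPsyngamma, COX6B, COX7AL2, COX7C, ND-24L and ND-30. Besides COX7AL2, the highest ranked signals at unbound members were 42.4 at ND-49, 33.5 at ATPsynC and 31.8 at ND-B17.2. The copy ND-24L was thus covered by a peak in every ranked list, with none past the IDR limit.

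**Figure D3:**
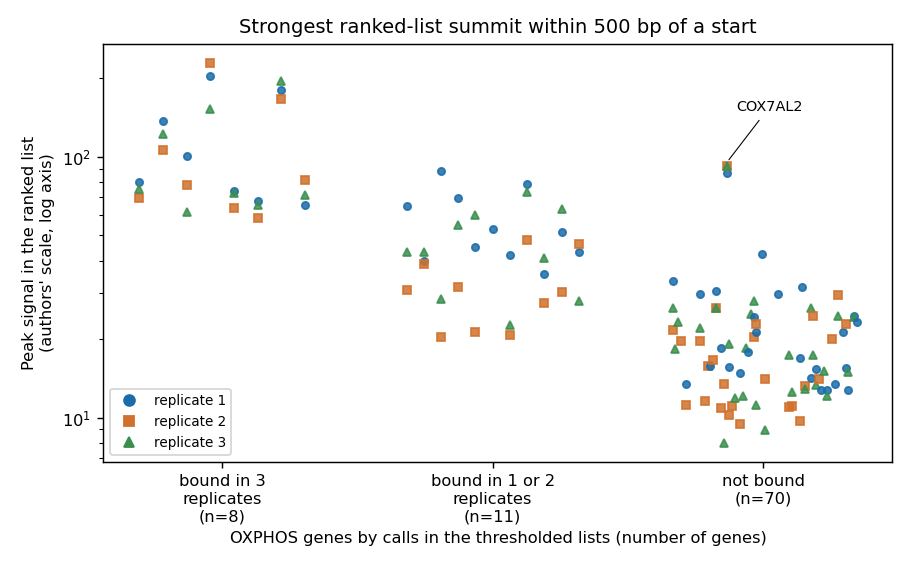
Strongest ranked-list summit within 500 bp of a start of each OXPHOS gene in each replicate, as the authors' peak signal on a log axis, by calls in the thresholded lists. COX7AL2, at 87 to 92.5, lies above the other genes that were not bound, of which the highest is ND-49 at 42.4.

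Most bound members shared their peak with another gene. The window around the summit held another gene's start for 17 of 19 bound members (89.5%), against 1557 of 2758 bound genes in all (56.5%), and for all 17 at least 1 such gene was divergent, that is, transcribed away from the member. Among those bound in 3 replicates the figures were 7 of 8 (87.5%) and 956 of 1570 (60.9%). The member's own start was the nearest to the median summit in 10 of the 19, and a neighbour's start was closer in the others. At ND-42, counted among those others, the median is the midpoint of summits 103 bp apart, and it stayed bound in 2 replicates when each summit went to its nearest start. Summits of bound members lay upstream of their nearest own start in 15 of 19. With each summit given to its nearest start alone, 5 of 89 members were bound in 3 replicates, against 7.36% of all genes. The mean share was then 8.99%, against 11.3% of all genes. For the shared sites the data do not show which of the paired genes, if either, the binding concerns.

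**Figure D4:**
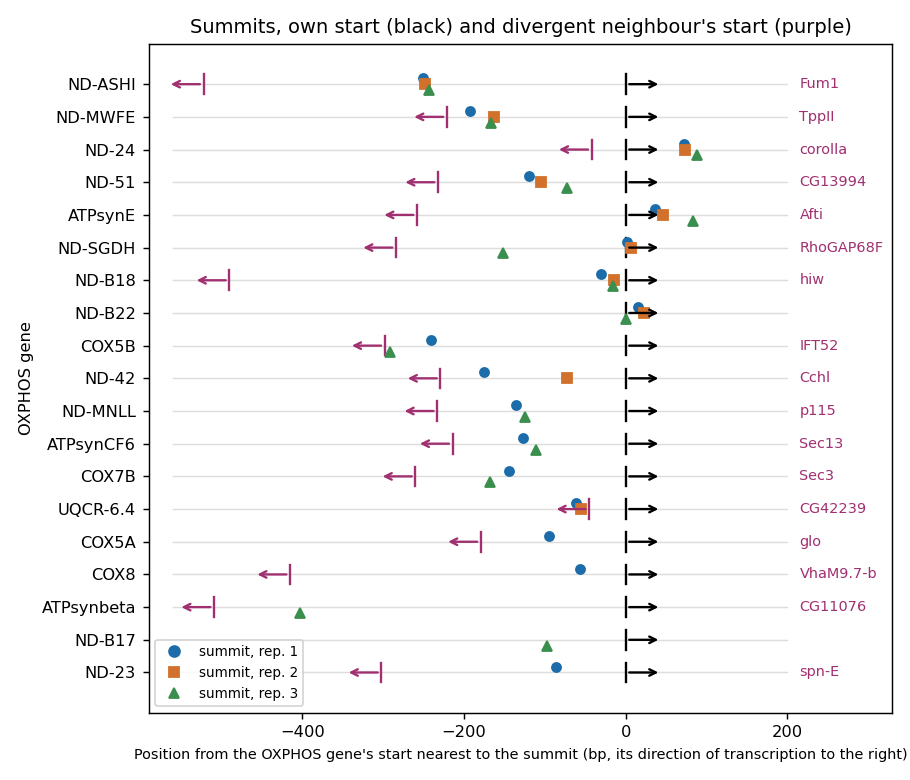
Summits at the 19 bound OXPHOS genes in each replicate, by distance in bp from the gene's own start (black, transcribed to the right), with the divergent neighbour's start in purple. For ND-ASHI the summits lie between its start and that of Fum1, 522 bp away, and ND-B22 and ND-B17 have no neighbour drawn.

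The neighbours had varied functions, with some in mitochondria. Besides Fum1 at ND-ASHI, ND-42 faced Cchl, the lyase that attaches heme to cytochrome c, with starts 229 bp apart. COX8 faced VhaM9.7-b, a subunit of the vacuolar proton pump. Others included Sec13 at ATPsynCF6, Sec3 at COX7B and p115 at ND-MNLL, which act in vesicle transport, hiw at ND-B18, a ubiquitin ligase of synapse growth, and spn-E at ND-23, a helicase of the piRNA pathway. ND-MNLL also shared its own start with the annotated gene CG45089.

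Members with a divergent neighbour held nearly all of the binding. Of the 89 genes, 41 (46.1%) had a divergent start within 1000 bp upstream, against 35.2% of all genes, and the share was 56.9% in the 65 members that are not copies and 16.7% in the 24 copies. Aef1-eGFP bound 39%, 22% and 29.3% of the 41 in replicates 1, 2 and 3 (mean 30.1% ± 8.57, SD, n = 3), against 29.5%, 26.6% and 26.3% of all genes with such a neighbour (mean 27.5% ± 1.75). Of the 48 members without one it bound 2.08%, 2.08% and 4.17% (mean 2.78% ± 1.2, SD, n = 3), against 9.57%, 8.61% and 8.26% of all such genes (mean 8.81% ± 0.676). With a divergent neighbour, members lay above all genes in replicates 1 and 3 and below them in replicate 2, while without one they lay below all genes in every replicate. Of these 48 members 20 are copies, and the other 28 had 3.57%, 3.57% and 7.14% bound (mean 4.76% ± 2.06, SD, n = 3), which in replicate 3 is close to the 8.26% of all such genes. Among members without such a neighbour only ND-B17 and ND-B22 were bound at all. Of the 41 members with a divergent neighbour 17 (41.5%) were bound in at least 1 replicate, against 34.5% of all such genes, and 24 were unbound. The median gap to the neighbour was 258 bp in the 17 bound members and 214 bp in these 24. Over all genes with such a neighbour it was 291 bp in bound and 306 bp in unbound ones.

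**Figure D5:**
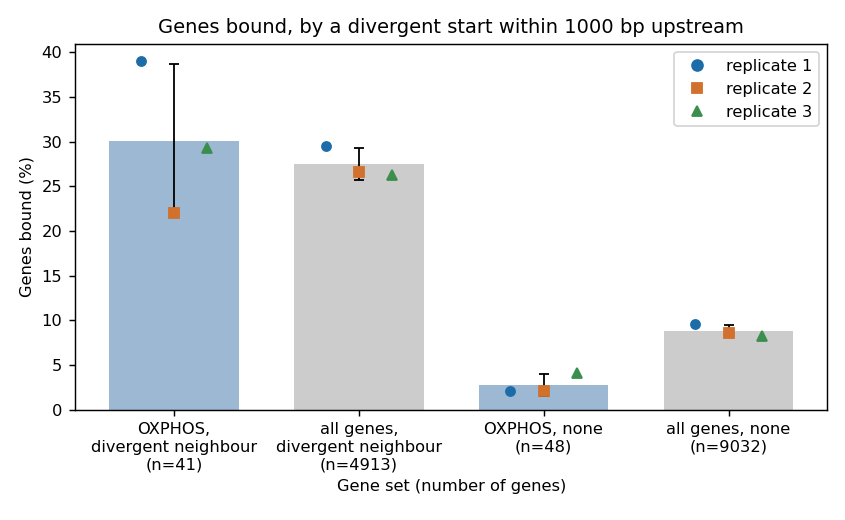
Share of genes bound in each replicate (points), with the mean (bars) and SD over 3 replicates (whiskers), for OXPHOS genes and all protein-coding genes with and without a divergent start within 1000 bp upstream. OXPHOS genes without one stand at 2.08% to 4.17%, against 8.26% to 9.57% of all such genes.

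Between 500 and 1000 bp from the nearest summit lay 1, 1 and 3 members in replicates 1, 2 and 3 (1.12%, 1.12% and 3.37%). Of all genes, 2.79%, 2.51% and 2.47% lay there, so a wider window adds few genes of either set. The median distance from a member to the nearest summit was 6673, 7883 and 7891 bp, against 8924, 10695 and 11389 bp for all genes. Members were thus nearer to a peak at the median in every replicate.

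The Aef1 word was no more common in promoters of the family than elsewhere. In windows from 250 bp before to 50 bp past the most upstream start, CAACAA on either strand was in 24 of 89 members (27%), against 27.8% of all genes. It was in 7 of 19 bound members (36.8%) and 17 of 70 unbound ones (24.3%). The tandem CAACAACAA, whose hits are also hits of CAACAA, was in these windows in 4 members (4.49%, against 2.24% of all genes), none of them bound. The tandem at the summit of ND-B22, a bound member, lies past the end of its promoter window and is not counted there. Within 50 bp of the summit, CAACAA was in 203 of 1090 promoter summits found in 3 replicates (18.6%) and 2 of 8 members bound in 3 (25%). Of the 19 members bound in any replicate it was in 5 (26.3%). Those members were ATPsynCF6, COX5B, ND-B18, ND-B22 and UQCR-6.4, so the genes with the strongest peaks, ND-ASHI, ND-MWFE and ND-24, were not among them.

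Of the other promoter words named here, all but the DRE differed more between the family and all genes than CAACAA did. The core of Motif 1, GGTCACAC, a fly core promoter element, was in 17 members (19.1%), against 7.7% of all genes, and in 6 of 19 bound members. Motif 7, searched as CAGCNCTA, CAGCNCTG, CATCNCTA and CATCNCTG, was in 25 members (28.1%), against 19.1%. The E-box was in 21 (23.6%, against 17.7%), the TATA box TATAAA in 49 (55.1%, against 45.8%), and the DRE in 9 (10.1%, against 9.36%). In the 24 copies Motif 1 was found once, and Motif 7 and the DRE not at all. Within 50 bp of the summit the E-box was in 3 of 19 members bound in any replicate (15.8%) and 2 of 8 bound in 3 replicates (25%). It was in 4.86% of promoter summits found in 3 replicates. Neither Motif 1 nor the DRE was there in any bound member. The 101 bp around the summits had a median GC share of 29.7% in members bound in any replicate and 28.2% in those bound in 3. For promoter summits found in 3 replicates it was 32.7%. Over whole promoters it was 34.3% in members and 38% in all genes, so the words' shares are not matched on base composition.

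Genes that work with the complexes were bound as follows. Of 12 electron carriers and subunits outside the naming rule, 4, 4 and 3 were bound in replicates 1, 2 and 3 (33.3%, 33.3% and 25%), against 16.6%, 15% and 14.6% of all genes. Cyt-c-d, the cytochrome c gene known for its role in the male germ line, had the strongest of these peaks, with signals of 321, 252 and 276, while blw, the alpha subunit of the ATP synthase, had 197, 179 and 170 and levy 171, 202 and 156. The peak at Cyt-c-d lay 345 to 372 bp past its start, and CG31808 also starts within the window. Each of these 3 was thus stronger in every replicate than ATPsynE, the best complex V member.

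Of 25 assembly factors listed by symbol, only 13 matched an annotated gene outside the naming rule. Of these 13, the same 3 were bound in every replicate (23.1%, against 14.6% to 16.6% of all genes): CIA30, Cox17 and Ttc19. CIA30, known for the assembly of complex I, had signals of 1073, 862 and 843 at ranks of 0.143%, 0.193% and 0.171%, among the strongest peaks of each list. Its window also holds the start of CG7601. Cox17, a copper chaperone of complex IV, had 71.4, 63 and 59, and Ttc19, known for complex III, had 133, 92.6 and 91. CIA30 thus had a signal several times that of ND-ASHI in every replicate.

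Of 21 genes of the citric acid cycle and pyruvate dehydrogenase, 5, 5 and 6 were bound (23.8%, 23.8% and 28.6%, against 16.6%, 15% and 14.6% of all genes), with Fum1, Idh3g, Pdhb and mAcon1 in every replicate. Idh3g, a subunit of isocitrate dehydrogenase, had signals of 179, 142 and 158, and Fum1 counts through the summit it shares with ND-ASHI. Of 20 genes of mitochondrial DNA upkeep and dynamics, 3, 4 and 3 were bound (15%, 20% and 15%), close to the 16.6%, 15% and 14.6% of all genes, with Lon and mtSSB in every replicate. Lon, a matrix protease, had signals of 412, 383 and 315. The 73 mitochondrial ribosomal protein genes had 27.4%, 24.7% and 23.3% bound (mean 25.1% ± 2.09, SD, n = 3), and the 33 genes of the vacuolar proton pump 27.3%, 24.2% and 21.2% (mean 24.2% ± 3.03, SD, n = 3). The 89 oxidative phosphorylation genes, at 15.4% ± 3.95, lay below both families in every replicate. Complex I, at 22.5% ± 2.5, was nearer to them, as were the 65 members that are not copies, at 21% ± 5.4.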

How the data were processed

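Chromatin immunoprecipitation with an anti-GFP antibody was sequenced from 3 biological replicates of 1 group. Per the deposited listing, the authors called peaks on dm6 from filtered alignments of each replicate; which aligner and caller they used is not given in the sources used here. Read depth is unknown. The deposited score of a peak is derived from its IDR and capped at 1000, and the deposited thresholded lists start at 830 or 831. The deposited ranked lists give the IDR as −log10. The signal is the authors' peak value, used to describe and rank peaks within a list, and the authors' summit offset gave summit positions.

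Genes were protein-coding in Ensembl 115 (BDGP6.54, dm6 coordinates) on 6 arms (41 genes elsewhere were left out), and sequences came from the RefSeq dm6 assembly. The strongest peak in the window stood for a gene. Divergent starts, words and shares were computed with Python 3.11.15 and numpy 2.4.6, and figures used matplotlib 3.10.9. Only the assignment of summits to genes was checked on simulated summits. No test was run, since the design holds 1 group.

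Members and lists were chosen with earlier results of these data known. Only listed symbols that matched an annotated gene outside the naming rule were counted. These were 12 of 15 carriers and subunits, 13 of 25 assembly factors, 21 of 24 citric acid cycle genes and 20 of 23 genes of mitochondrial DNA upkeep and dynamics. Named were the members bound in any replicate, up to 10 unbound members with a ranked summit in 3 replicates, and up to 6 genes bound in 3 replicates of each other list; sequences were shown for up to 6 bound members with the best mean rank, outside a chromosome arm not printed here, and 1 unbound member. Other unbound genes, genes of these lists bound in 1 or 2 replicates and neighbours were named, and the core subunits of complex I grouped, after their values were seen. Coverage tracks were not used here.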

Additional observations from a re-analysis of the deposited data

How the results depend on the processing

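The mean share of members bound, 15.4%, and the 8 members bound in 3 replicates were recomputed under other settings. Assigning each summit to its nearest start alone gave 8.99% (11.3% of all genes) and 5 of 89 members bound in 3 replicates (7.36% of all genes). Peaks between paired starts then count for 1 gene. The 5 were ATPsynE, ND-24, ND-ASHI, ND-B18 and ND-B22. The first of 4 further thresholded lists, deposited for the series and with unnamed replicates, gave 20.2% (20.2% of all genes), and the others 15.7%, 16.9% and 18% (18.8%, 18.3% and 19.3% of all genes). Leaving out the 20 copies with parents among the members gave 19.8%, against 15.4% of all genes. Leaving out all 24, added after the data were seen, gave 21%, and both rose by a smaller denominator. Leaving out replicates 1, 2 and 3 in turn gave 13.5%, 17.4% and 15.2%, against 14.8%, 15.6% and 15.8% of all genes. Bound in all remaining replicates were then 8, 12 and 10 of 89 members, against 12.1%, 12.7% and 12.8% of all genes. The other settings were windows of 250 and 1000 bp, the most upstream start, peak intervals and IDR limits of 0.05 and 0.001. Also used were leaving out Sdhaf3, and ranked peaks past the thresholded lists' score (added after the data were seen). These gave a mean share of 11.6% to 18% (11.8% to 18.4% of all genes). Bound in 3 replicates were 7 to 10 of the 89 members, or of 88 without Sdhaf3, against 8.82% to 13.4% of all genes. Members lay furthest above all genes at 250 bp (14.6% against 12.3%) and with the most upstream start (15.4% against 13.7%). With 1000 bp, peak intervals and both IDR limits they lay slightly below. At an IDR of 0.05, ATPsynCF6 and COX7AL2 were bound in 3 replicates. No paired analysis was possible because there is 1 group. Read depth is unknown, so a gene without a called peak cannot be said to lack binding.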
